A study of Mus musculus with 6 samples.

Results

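Metallothionein and zinc transporter genes were followed through pregnancy in mouse liver. The group holds 7 genes, a named list drawn up with earlier results of these data known, so counts of its members describe it and carry no weight as a blind test: the metallothioneins Mt1 and Mt2, the zinc-sensing transcription factor Mtf1, the zinc family exporters Slc30a1 and Slc30a10, and the importers Slc39a14 and Slc39a4. All 7 were measured, among 18193 genes on the array, each read from its brightest probe set, by the mean of all arrays. Whole livers came from C57BL/6 mice that carry the human drug-metabolising gene CYP2D6 as a transgene, a state that every group shared. Livers were taken before pregnancy, on pregnancy day 21 and on postpartum day 7, 2 at each stage, with 1 array per liver and 6 arrays in all. What promoter drives the transgene, how old and how fed the animals were, and at what hour livers were collected is not given in the sources used here. Stage therefore cannot be told apart from collection time or feeding where those differed.

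Metallothioneins are small, cysteine-rich proteins that bind zinc and copper in the cytosol. Free zinc activates Mtf1, which binds short metal response elements near its targets and raises metallothionein and Slc30a1 transcription. Slc30a proteins move zinc out of the cytosol and Slc39a proteins move it in. In liver, metallothionein genes are also induced by glucocorticoids and by interleukin-6, so they respond to hormones and inflammation as well as to metal.

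Mt2 and Mt1 lie next to each other on chromosome 8 on the plus strand. The annotated starts that anchor their windows below are 6471 bases apart (GRCm38.p6, RefSeq). Because Mtf1 acts through short elements, the windows from 250 bases before to 50 after the annotated start were searched on both strands for the core of the metal response element, TGCACNC or TGCGCNC, counting overlapping matches. Windows were found for 5 of the 7 genes: Mt1, Mt2, Mtf1, Slc30a1 and Slc30a10. None was found for Slc39a14 and Slc39a4 in the set of windows used here. The Mt2 window held 4 matches, 3 of them before the start, and these 250 bases before it (chr8:94172368-94172617, plus strand) are shown with the matches in capitals.
Mt2: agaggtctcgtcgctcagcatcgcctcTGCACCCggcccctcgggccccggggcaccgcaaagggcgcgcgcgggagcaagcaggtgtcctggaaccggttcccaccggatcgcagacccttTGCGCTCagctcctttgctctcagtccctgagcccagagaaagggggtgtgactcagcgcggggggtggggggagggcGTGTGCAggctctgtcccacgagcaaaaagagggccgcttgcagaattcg
The 3 matches of the Mt1 window, which is the other metallothionein, stand in capitals with their flanks, at chr8:94179055-94179083, chr8:94179080-94179108 and chr8:94179098-94179126 on the plus strand.
Mt1 match 1: cggtcccgctgTGCACACtggcgctccag
Mt1 match 2: ccagggagctcTGCACTCcgcccgaaaag
Mt1 match 3: cgcccgaaaagTGCGCTCggctctgccaa
The start that anchors the Mt1 window, 94179089, lies inside the span RefSeq gives the gene, which begins at 94178883, so where these matches lie relative to the main Mt1 transcript is not settled.
For Slc30a1, the exporter known as an Mtf1 target, the 2 matches read in reverse (chr1:191906727-191906755 and chr1:191906800-191906828, plus strand shown).
Slc30a1 match 1: acgggggttccGAGTGCAaagcaaagttt
Slc30a1 match 2: gcctccgggccGAGCGCAgtcgccgcgga
Slc30a10 held 3 matches, of which 2 overlap on opposite strands, and Mtf1 held 0. Of 32851 windows of this length, 25.7% held at least 1 match, 7.11% at least 2, 1.97% at least 3 and 0.52% at least 4. A match is a stretch of letters and no measured binding.

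Levels are given on the log2 scale of the deposited values, where 1 unit is a factor of 2. Array medians lay between 5.09 and 5.15, and levels below 5.15 on every array are called dim here. Replicate arrays correlated across genes at 0.997, 0.994 and 0.996 before, during and after pregnancy. Stages were compared with limma over all genes, "adjusted p" is its Benjamini-Hochberg value, and a gene is said to rise or fall where that lies under 0.05. The number of arrays limits the precision. A p-value sets a difference against the spread between replicate livers, pooled over the 3 stages and moderated with that of all genes. A gene's SE is therefore the same in every comparison, also where its replicates lie further apart at 1 stage. The replicates are called biological in the labels, which say no more of how animals were chosen. The 3 comparisons share arrays and are not independent of each other.

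**Figure D1:**
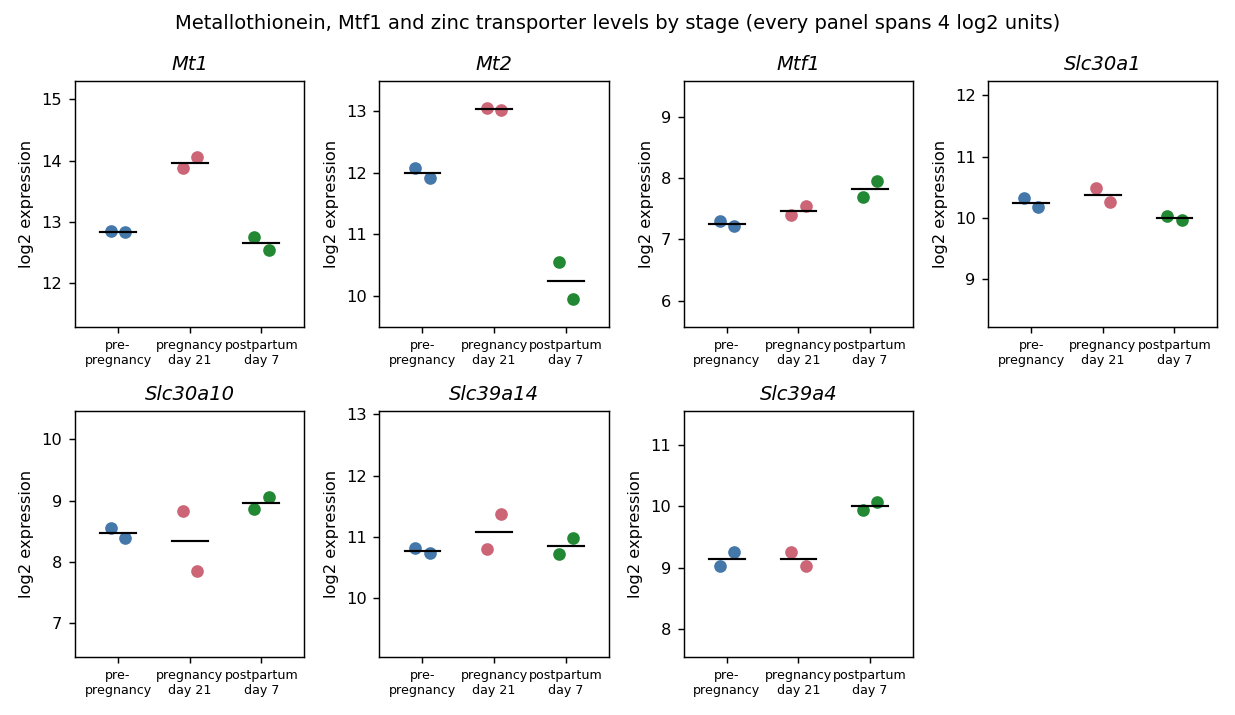
Log2 expression (vertical axis) of the 7 genes in each of the 6 arrays (points) at pre-pregnancy, pregnancy day 21 and postpartum day 7 (horizontal axis), with the mean of each stage as a black line. Every panel spans 4 log2 units: Mt1 and Mt2 are highest in pregnancy, Mt2 falls postpartum to 10.55 and 9.94, and Slc39a4 is highest postpartum at 9.94 and 10.07.

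The first question was which of these genes differ near term from their level before pregnancy. Mt1 and Mt2 rose, Mt1 by an amount that differed between its probe sets, and the other 5 genes did not pass the test. Thus 2 of 7 members were called, both higher, where 13.7% of all genes were called in either direction, 5.46% higher and 8.25% lower. The median difference of the 7 genes was 0.215, against 0.045 for all genes.

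Mt1, which encodes a main zinc-buffering protein of hepatocytes, stood at 12.85 and 12.83 before pregnancy and at 13.87 and 14.05 in pregnancy. The stages did not overlap, and the gap between them was larger than the gaps between replicates. Mt1 rose 2.17-fold (log2 difference 1.12 ± 0.120 SE, n = 2 livers a stage, adjusted p = 0.00243). It passed the test without any 1 of the 6 arrays, at 1.03 to 1.21. A dimmer Mt1 probe set stood at 5.60 and 5.73 before pregnancy and at 7.37 and 8.58 in pregnancy. It rose by 2.31 ± 0.337 (adjusted p = 0.00608), and the mean of both probe sets rose by 1.715 (0.00555), so the direction is shared but the size is not settled. The bright Mt1 probe set carries the suffix that the array's maker gives to probes matching more than 1 transcript, so signal from a related transcript cannot be told apart in it.

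Mt2, the neighbouring metallothionein, stood at 12.07 and 11.92 before pregnancy and at 13.05 and 13.03 in pregnancy. Both pregnant livers lay above both earlier livers. It rose 2.06-fold (log2 difference 1.045 ± 0.186 SE, adjusted p = 0.0122). Mt2 no longer passed without pre-pregnancy replicate 1 (1.12, adjusted p = 0.0876), pre-pregnancy replicate 2 (0.97, 0.0813) or pregnancy replicate 2 (1.055, 0.0519).

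Mtf1, the factor that senses zinc, had 7.30 and 7.21 before pregnancy and 7.40 and 7.54 in pregnancy, a difference of 0.215 ± 0.124 with a 95% interval of -0.07 to 0.50 (adjusted p = 0.277). The stages did not overlap, but 59.6% of all genes were apart in this way. Other Mtf1 probe sets differed by -0.22 to 0.11, so no direction can be given.

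Slc30a1, the exporter that releases zinc across the plasma membrane, had 10.32 and 10.17 before pregnancy and 10.49 and 10.26 in pregnancy. These overlap. The Slc30a1 difference was 0.13 with an interval of -0.15 to 0.41 (adjusted p = 0.496), and its second probe set stood at -0.01.

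Slc39a14, an importer of zinc, iron and manganese that inflammation induces in hepatocytes, had 10.82 and 10.74 before pregnancy and 10.80 and 11.38 in pregnancy. Only the second pregnant liver was above the earlier ones. The difference was 0.31 (interval -0.13 to 0.75, adjusted p = 0.302), and it was 0.02 without pregnancy replicate 2 and 0.60 without pregnancy replicate 1 (adjusted p = 0.0501).

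Slc30a10, best known as the manganese exporter of hepatocytes, had 8.55 and 8.39 before pregnancy and 8.83 and 7.85 in pregnancy. Its pregnant livers had the widest replicate gap of the 7 genes at any stage, and lay on either side of the earlier ones. The difference was -0.13 (interval -0.76 to 0.50, adjusted p = 0.779). Leaving out pregnancy replicate 1 gave -0.62, which passed the test (adjusted p = 0.0419), and leaving out pregnancy replicate 2 gave 0.36 (0.178), so its direction rests on which pregnant liver is used.

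Slc39a4, the importer known for zinc uptake in the intestine, had 9.03 and 9.25 before pregnancy and 9.26 and 9.03 in pregnancy. The means were 0.005 apart, with an interval of -0.29 to 0.30 (adjusted p = 0.982). A change within that interval is not excluded by these arrays.

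**Figure D2:**
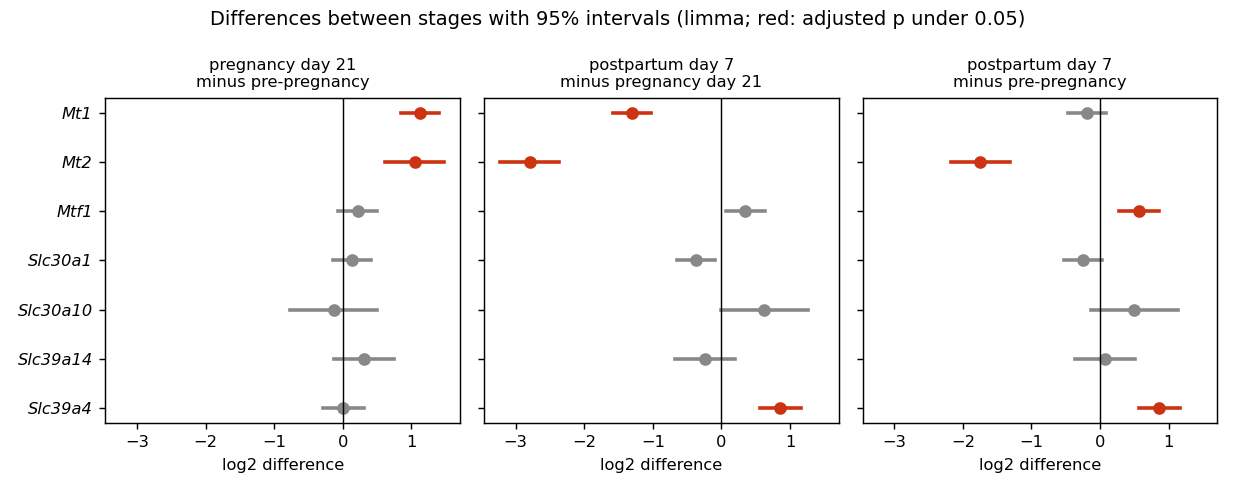
Log2 difference between stages (horizontal axis) for the 7 genes (vertical axis), with limma's 95% intervals as bars, in each of the 3 comparisons. Red marks an adjusted p under 0.05: Mt1 and Mt2 in pregnancy against pre-pregnancy, Mt1, Mt2 and Slc39a4 in postpartum against pregnancy, and Mt2, Mtf1 and Slc39a4 in postpartum against pre-pregnancy.

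Postpartum liver was compared with late pregnancy to ask what differs after birth. Mt2 fell 6.94-fold and Mt1 2.48-fold, while the importer Slc39a4 rose 1.82-fold. Thus 3 of 7 members passed the test, 2 lower and 1 higher, where 3.29% of all genes were called, 2.41% higher and 0.879% lower. Of all genes 439 were called higher and 160 lower, or 292 and 175 after repeated quantile normalization. The median difference of the 7 genes was -0.24, against -0.01 for all genes, and 6 of 7 had stages that did not overlap, as did 50.1% of all genes.

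Mt2 went from 13.05 and 13.03 in pregnancy to 10.55 and 9.94 postpartum. The postpartum livers were the lowest of the 6 and lay further apart than the replicates of the other stages. The log2 difference was -2.795 ± 0.186 SE (adjusted p = 0.000976), and 99.97% of all genes changed by no more than that in either direction. It passed without any 1 of the 6 arrays, at -3.10 to -2.49.

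Mt1 went from 13.87 and 14.05 in pregnancy to 12.76 and 12.54 postpartum, again with no overlap. The log2 difference was -1.31 ± 0.120 SE (adjusted p = 0.00310), and -1.42 to -1.20 over the arrays left out, each time past the threshold. The dimmer Mt1 probe set fell by 2.47 (SE 0.337, adjusted p = 0.0135), to 5.72 and 5.29.

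Slc39a4 went from 9.26 and 9.03 to 9.94 and 10.07. Every postpartum liver was above every other liver. The log2 difference was 0.86 ± 0.129 SE (adjusted p = 0.0173). Slc39a4 lost its call without pregnancy replicate 2 (0.745, adjusted p = 0.0652), postpartum replicate 1 (0.925, 0.0726) or postpartum replicate 2 (0.795, 0.110).

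The other 4 genes did not pass after adjustment. Slc30a1 stood at 10.03 and 9.97 postpartum, below both pregnant livers, a difference of -0.375 with an interval of -0.65 to -0.10 (unadjusted p = 0.0141 from limma, adjusted p = 0.135). Its second probe set stood at -0.275. Mtf1 had 7.69 and 7.95 postpartum, above both pregnant livers, at 0.35 (interval 0.06 to 0.64, adjusted p = 0.165). Slc30a10 had 8.87 and 9.06, above both pregnant livers, at 0.625 (interval -0.01 to 1.26, adjusted p = 0.247), and its second probe set stood at 0.795. The Slc30a10 difference was 1.115 and passed when pregnancy replicate 1 was left out (adjusted p = 0.0161), and was 0.135 when replicate 2 was. Slc39a14 had 10.72 and 10.98, within the range of the pregnant livers, at -0.24 (interval -0.68 to 0.20, adjusted p = 0.515).

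The postpartum liver was also set against the pre-pregnancy liver to ask which genes were back at their starting level. Mt2 was 3.36-fold lower than before pregnancy, Slc39a4 1.82-fold higher and Mtf1 1.48-fold higher. Thus 3 of 7 members passed, 1 lower and 2 higher, where 7.66% of all genes were called, 3.91% higher and 3.75% lower. The median of the 7 genes was 0.07, against 0.025 for all genes. Stages did not overlap for 6 of the 7 and for 52.6% of all genes.

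Of the metallothioneins, Mt2 passed this test and Mt1 did not. Mt2 had 10.55 and 9.94 postpartum against 12.07 and 11.92 before pregnancy, a log2 difference of -1.75 ± 0.186 SE (adjusted p = 0.00432). Without pre-pregnancy replicate 1 the Mt2 difference was -1.675 and did not pass (adjusted p = 0.0676). Mt1 had 12.76 and 12.54 against 12.85 and 12.83, a log2 difference of -0.19 ± 0.120 SE (interval -0.47 to 0.09, adjusted p = 0.410). The dimmer Mt1 probe set was at -0.16 ± 0.337, also not called. In order of level, Mt2 was highest in pregnancy, then before pregnancy, then postpartum, with each step larger than the replicate gaps. For Mt1 the pregnant level was highest, and the pre-pregnancy and postpartum levels were neighbours whose difference did not pass the test.

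Within an array, the log2 value of Mt2 minus that of the bright Mt1 probe set was -0.78 and -0.91 before pregnancy, then -0.82 and -1.02, then -2.21 and -2.60 postpartum. The stage means were -0.845 ± 0.0919 (SD, n = 2), -0.92 ± 0.141 and -2.405 ± 0.276. Here the pre-pregnancy and pregnant values overlap, and both postpartum values lie below all 4 others. Against the dimmer Mt1 probe set, a choice made after seeing the data, Mt2 minus Mt1 was 6.47 and 6.19 before pregnancy, then 5.68 and 4.45, then 4.83 and 4.65 postpartum. There the pregnant values lie below the earlier ones and overlap the postpartum ones. From before pregnancy to postpartum the mean difference shifted by -1.56 with the bright and by -1.59 with the dimmer probe set, but from pregnancy to postpartum by -1.485 and -0.325, and from before to during pregnancy by -0.075 and -1.265. Only the first of these shifts is thus of like size with both Mt1 probe sets. These values compare unequal change of the genes and not their abundance, and no test was run on them. Mt2 has a single probe set, so its postpartum fall has no second probe set to be set against.

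**Figure D3:**
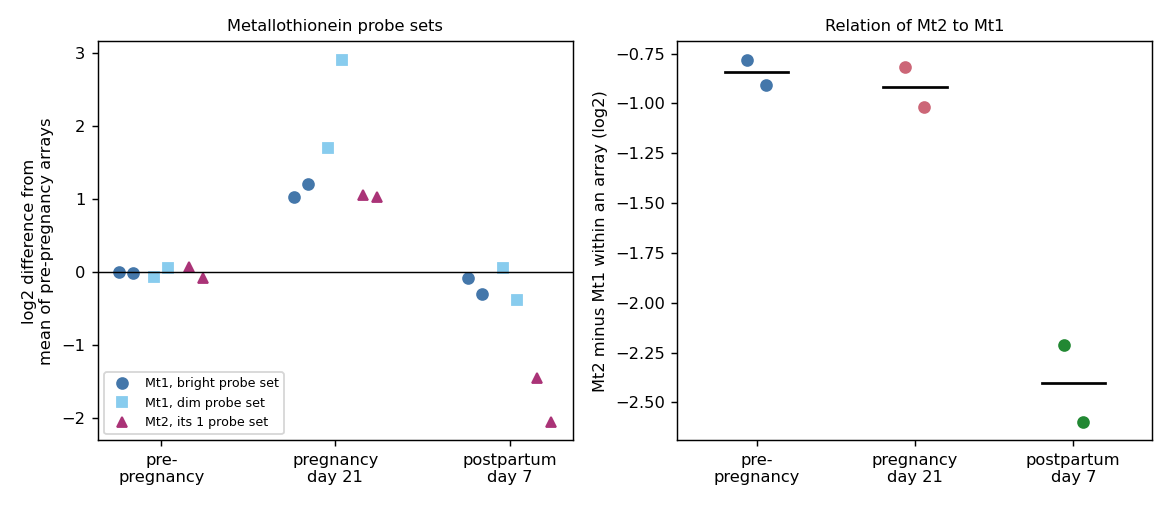
Left, log2 difference of each array from the mean of the pre-pregnancy arrays (vertical axis) for the bright and the dim Mt1 probe set and the Mt2 probe set at the 3 stages; right, Mt2 minus the bright Mt1 probe set within each array, with stage means as lines. All 3 probe sets are high in pregnancy, and postpartum the Mt1 probe sets are near 0 while Mt2 lies well below it.

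Slc39a4 had 9.94 and 10.07 postpartum against 9.03 and 9.25 before pregnancy, a log2 difference of 0.865 ± 0.129 SE (adjusted p = 0.0111). Its postpartum level was the highest of the 3 stages, and the levels before and during pregnancy did not differ beyond their spread. Slc39a4 did not pass without pre-pregnancy replicate 1 (0.755, adjusted p = 0.116) or postpartum replicate 2 (0.80, 0.0798).

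Mtf1 had 7.69 and 7.95 postpartum against 7.30 and 7.21, a log2 difference of 0.565 ± 0.124 SE (adjusted p = 0.0348). This value comes from its brightest probe set, and the others stood at -0.215 to 0.19, none of them called. With the mean of all Mtf1 probe sets the difference was 0.16 (adjusted p = 0.368), after repeated quantile normalization it was 0.525 (0.0503), and it did not pass without either pre-pregnancy or either postpartum array (0.435 to 0.695, adjusted p = 0.0536 to 0.204). A rise of Mtf1 is therefore not settled.

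The transporters Slc30a1 (-0.245, interval -0.52 to 0.03), Slc30a10 (0.495, -0.14 to 1.13) and Slc39a14 (0.07, -0.37 to 0.51) were not called postpartum against pre-pregnancy. For Slc30a10 the adjusted p was 0.340, and 0.04998 when only these 2 stages were fitted, with its second probe set at 0.79.

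The remaining members of both transporter families were read from lists that hold every numbered gene. None (0) of the 8 other Slc30a exporters was called in any comparison by limma, with 0, 0 and 3 at an unadjusted p under 0.05. Their median differences were -0.025 in pregnancy, -0.0775 from pregnancy to postpartum and -0.045 from before pregnancy to postpartum. Slc30a2 and Slc30a8 were dim on every array. Of the 12 other Slc39a importers, 1 rose and 1 fell in pregnancy, and 2 rose in each postpartum comparison. Their medians were 0.055, -0.0375 and 0.0625. Of all genes, 5.46% rose and 8.25% fell in pregnancy. Postpartum, 2.41% were higher than in pregnancy and 3.91% higher than before pregnancy.

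Slc39a10, a plasma membrane zinc importer known to be repressed by Mtf1 in mouse liver, moved opposite to the metallothioneins. Before pregnancy it stood at 6.59 and 6.79, at term at 5.45 and 5.19, and after birth at 6.77 and 6.31. Both pregnant livers lay below the other 4, close to the array medians, so a fold would be imprecise. Slc39a10 fell by 1.37 on the log2 scale in pregnancy (SE 0.172, adjusted p = 0.00389) and rose by 1.22 postpartum (SE 0.172, adjusted p = 0.0143). Postpartum against pre-pregnancy it was at -0.15 (adjusted p = 0.692). Its second probe set stood at -0.33 and 0.265 for the first 2 of these, so the size is not settled. The later rise of Slc39a10 did not pass without pregnancy replicate 2 (1.09, adjusted p = 0.0603) or postpartum replicate 1 (0.99, 0.0644).

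Slc39a11 had 9.37 and 9.31 before pregnancy, then 9.82 and 9.88, then 9.77 and 9.74 postpartum. It rose by 0.51 ± 0.0983 in pregnancy (adjusted p = 0.0163) and was still higher postpartum than before pregnancy, by 0.415 (0.0450). Without an array of either stage compared Slc39a11 kept its size (0.48 to 0.54 in pregnancy), but adjusted p rose to 0.0933 without pre-pregnancy replicate 1 and to 0.0827 and 0.0623 without pre-pregnancy replicate 2 and pregnancy replicate 2. Its postpartum call was lost without any 1 array of those stages (0.385 to 0.445, adjusted p = 0.160 to 0.190), with the replicate number as a block (0.0557) and with arrays centred on their medians (0.0539). Slc39a6 was called higher postpartum than in pregnancy (0.535) and than before (0.505), but its 3 other probe sets stood at -0.36 to 0.025 and -0.465 to -0.03. With the mean of all Slc39a6 probe sets the differences were -0.0025 and -0.01, so its direction is not settled.

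**Figure D4:**
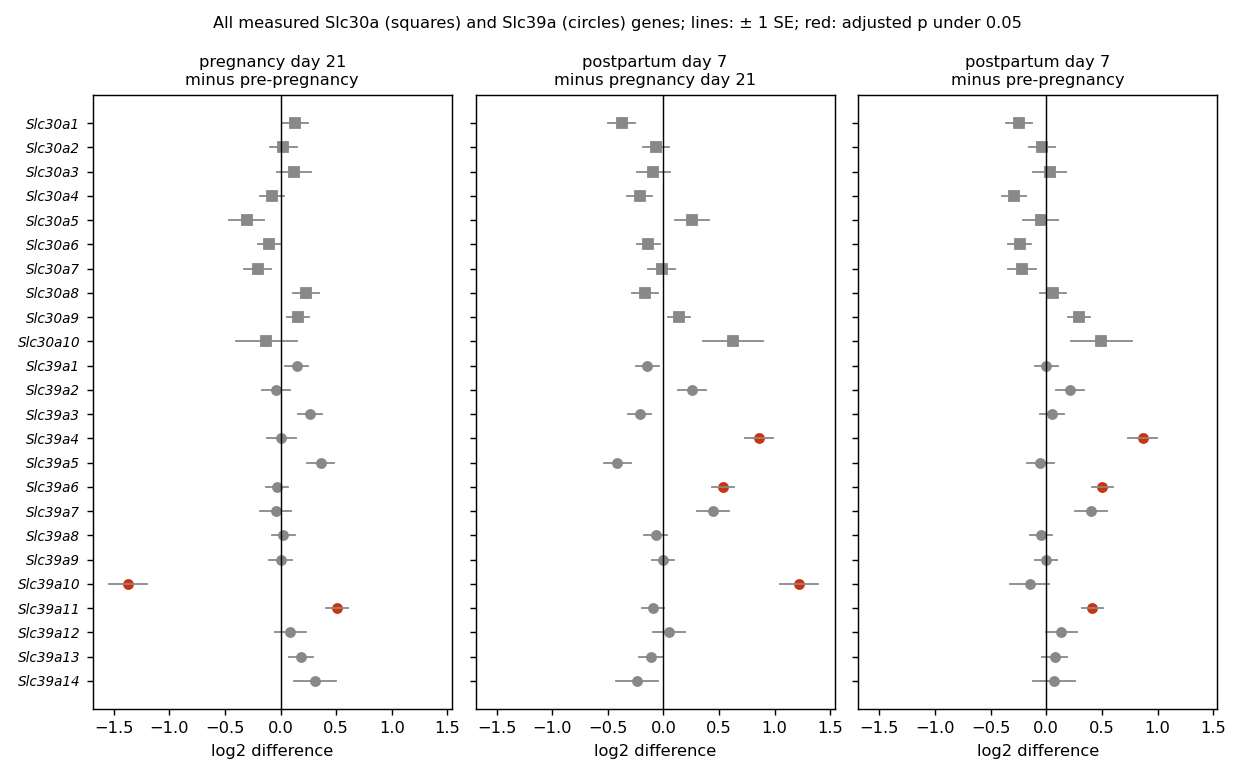
Log2 difference (horizontal axis) of all 24 measured Slc30a genes (squares) and Slc39a genes (circles) in the 3 comparisons, with bars of 1 SE on either side and red for an adjusted p under 0.05. No Slc30a gene is red, and Slc39a10 lies at -1.37 in pregnancy and at 1.22 postpartum.

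The brain and epithelial metallothioneins Mt3 and Mt4 were not called. Mt3 lay between 5.24 and 5.89 on all arrays, and Mt4 was dim throughout, at 3.58 to 4.26.

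Of 10 reported Mtf1 targets outside the 7 genes, 2 rose in pregnancy (median 0.1475) and 2 were higher postpartum than before pregnancy (median 0.13). From pregnancy to postpartum limma called 0 of them (median 0.0675), with 5 at an unadjusted p under 0.05. Of all genes, 13.7% were called in pregnancy and 7.66% postpartum against pre-pregnancy, so 2 of 10 says little about the list. Those called in pregnancy were Ndrg1 and the trefoil factor Tff3. Ndrg1, a stress-responsive gene, had 7.44 and 7.08 before pregnancy, then 10.10 and 8.57, then 8.71 and 8.27, so its pregnant livers differed widely. The Ndrg1 difference of 2.075 ± 0.424 (adjusted p = 0.0199) was 1.31 without pregnancy replicate 1 and 2.84 without pregnancy replicate 2. Ndrg1 did not pass without pre-pregnancy replicate 1 (adjusted p = 0.116) or 2 (0.112), nor with a trended, robust variance (0.109). Tff3 (0.52 ± 0.130, adjusted p = 0.0370) passed in 1 of 6 fits that left out an array (0.355 to 0.685). Selenoh, a selenoprotein gene of the list, was not called in any comparison. The selenoprotein genes Selenow (0.69) and Txnrd2 (0.645) were the 2 higher after birth than before pregnancy. Their calls were lost without any 1 array of those stages, and other Txnrd2 probe sets stood at 0.11 to 0.17.

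Genes that respond to the other inducers of metallothionein were read beside them. Of 25 interleukin-6 and acute phase genes, 8 rose and 2 fell in pregnancy (median 0.22), and 9 fell postpartum against pregnancy (median -0.26). Postpartum against pre-pregnancy 1 was higher and 4 were lower (median -0.125). Of all genes, 5.46% rose and 8.25% fell in pregnancy, and 0.879% fell postpartum against pregnancy. Postpartum against pre-pregnancy 3.91% were higher and 3.75% lower. The 2 list genes that fell in pregnancy were Orm2 (-0.76) and Orm3 (-1.33). Of the fits that left out an array, the Orm2 call held only without pregnancy replicate 1. It was also lost with the replicate number as a block and after repeated quantile normalization. The Orm3 call was lost without either pre-pregnancy array. From pregnancy to postpartum, leaving out any 1 array lost the falls of Il1r1, Saa4, Hp, Itih3 and Itih4. That of Serpina3n held only without pregnancy replicate 1. Il6ra, the interleukin-6 receptor, stood at 9.42 and 9.29, then 10.09 and 10.40, then 9.34 and 9.12, high only in the pregnant livers. It rose by 0.89 ± 0.140 (adjusted p = 0.00839) and fell by 1.015 (SE 0.140, adjusted p = 0.0133) postpartum. These Il6ra calls were lost without a pre-pregnancy array (0.0671 and 0.0604) and without a postpartum array (0.0503 and 0.0835), respectively. Lbp, which binds bacterial lipopolysaccharide, rose by 1.645 ± 0.172 (adjusted p = 0.00223), a call that held without any 1 array. From pregnancy to postpartum Lbp fell by 1.065 (adjusted p = 0.0219). That call was lost without pregnancy replicate 2 or either postpartum array. Of 16 glucocorticoid-responsive genes, 2 rose and 2 fell in pregnancy (median -0.05), and 2 fell postpartum against pregnancy (median -0.485). Postpartum against pre-pregnancy 4 were lower, Fkbp5, Zbtb16, Tdo2 and Nr3c1 (median -0.50 against 0.025 for all genes). The Zbtb16 and Tdo2 calls were lost without any 1 array of those stages. They were also lost with a trended, robust variance and with the mean of all probe sets. Fkbp5, the receptor co-chaperone that glucocorticoids induce, stood at 10.61 and 10.67, then 11.06 and 11.20, then 9.92 and 10.0. It rose by 0.49 ± 0.105 (adjusted p = 0.0235) and fell by 1.17 (SE 0.105, adjusted p = 0.00280) to below its level before pregnancy (-0.68 ± 0.105, adjusted p = 0.0124), with stages in the same order as for Mt2. The Fkbp5 rise was lost without a pre-pregnancy array (0.146 and 0.0827), without pregnancy replicate 2 (0.0893) and with the mean of its probe sets (0.0576). The difference from pre-pregnancy was lost without any 1 array of those stages (0.0618 to 0.104), and the fall from pregnancy held each time. Other Fkbp5 probe sets stood at 0.12 to 0.25, -1.18 to -0.02 and -0.93 to 0.10 in the 3 comparisons. Klf9, another glucocorticoid-induced gene, rose by 0.865 in pregnancy (SE 0.129, adjusted p = 0.00716, and 0.0769 without pre-pregnancy replicate 1) and fell by 0.83 postpartum (0.0189), a fall that passed in 1 of 6 fits that left out an array. In the opposite direction, Dusp1, a phosphatase gene that glucocorticoids induce, fell by 0.81 in pregnancy (SE 0.142, adjusted p = 0.0119, and 0.0892 or 0.0748 without either pre-pregnancy array). Nr3c1, the glucocorticoid receptor, fell by 0.72 (SE 0.147, adjusted p = 0.0198) and was still lower postpartum than before pregnancy (-0.80, adjusted p = 0.0208). Other Nr3c1 probe sets stood at -0.76 to 0.205 in pregnancy, and thus disagree in direction, and at -0.89 to -0.08 postpartum against pre-pregnancy. Nr3c1 did not pass in pregnancy without pre-pregnancy replicate 1 (0.146) or pregnancy replicate 2 (0.0849), nor postpartum without either pre-pregnancy array (0.167 and 0.0559) or postpartum replicate 2 (0.131). The list thus held called genes in both directions in pregnancy. The part of these genes' regulators in the metallothionein levels was not tested.

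The genes whose 6 values ran closest to a member's were found for Mt1 and Mt2, whose stage means span at least 1 log2 unit. Each gene was centred on its own mean and compared by the mean absolute difference over the 6 arrays, among 8888 genes of at least median brightness; the values describe likeness and carry no test. Closest to Mt1 were Tmem191c (0.06), the hydroxysteroid dehydrogenase Hsd17b6 (0.0983), Il6ra (0.117), the leukemia inhibitory factor receptor Lifr (0.135) and the cell death gene Bcl2l11 (0.142). Hsd17b6 stood at 11.44 and 11.68, then 12.56 and 12.64, then 11.62 and 11.29, so like Mt1 it was high in pregnancy and returned. Closest to Mt2 were the lipoprotein lipase inhibitor Angptl4 (0.365), the retinol dehydrogenase Rdh9 (0.506), Slc25a33 (0.521), Nlrp12 (0.532) and Hectd2os (0.547). Angptl4 stood at 10.98 and 10.93, then 11.64 and 11.23, then 9.91 and 9.46.

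Cell type markers were read on the same arrays, since in whole liver fewer cells of a type and less RNA per cell cannot be told apart. Hepatocyte markers were bright, with albumin at 14.87 to 14.98 on all 6 arrays. Of 10 measured, 2 (Apob and Asgr1) rose in pregnancy. The Apob call was lost without pre-pregnancy replicate 1, and the Asgr1 call held only without pregnancy replicate 1. Of all genes, 5.46% rose and 8.25% fell in pregnancy, and 0.879% fell postpartum against pregnancy. The summed level of the 10 markers on the log2 scale was 17.44 to 17.47 before pregnancy, 17.51 to 17.55 in pregnancy and 17.43 to 17.47 postpartum. Of 9 neutrophil markers, S100a9 and Mpo rose in pregnancy, and S100a9 fell postpartum. The S100a9 rise was lost without pre-pregnancy replicate 1, and its fall without any 1 of the 6 arrays. The Mpo rise was lost without any 1 pre-pregnancy or pregnancy array. The summed neutrophil level was 8.87 to 8.98, 9.22 to 9.29 and 8.94 to 8.98, so this level was highest in pregnancy, as were the metallothioneins. Mpo, Elane, Camp, Ltf and Cxcr2, 5 of the 9, were dim on every array. Of 12 endothelial markers 3 (Kdr, Tek and Emcn) fell in pregnancy (summed level 12.55 to 12.84, then 12.38 to 12.45, then 12.31 to 12.39). The Kdr and Emcn calls were lost without any 1 pre-pregnancy or pregnancy array. That of Tek was lost without either pre-pregnancy array or pregnancy replicate 2. Of 13 Kupffer cell and macrophage markers Timd4 and Lyz2 fell and Cd163 rose (13.43 to 13.49, then 13.08 to 13.38, then 13.43 to 13.53). The Timd4 call held without any 1 array, and that of Lyz2 held only without pregnancy replicate 1. The Cd163 call was lost without any 1 pre-pregnancy or pregnancy array. Of 10 pancreatic acinar markers, Cela3b, an elastase gene, stood at 6.31 and 6.44, then 9.23 and 9.59, then 6.41 and 6.78, so it too was high in pregnancy alone. It rose by 3.035 ± 0.165 (adjusted p = 0.000227) and fell by 2.815 (0.000688), both without any 1 array as well, while Cela1 fell by 1.18 in pregnancy (SE 0.112, 0.00167). The summed acinar level was 10.67 to 10.75, then 10.50 to 10.70, then 9.96 to 10.0, with Cpa1, Cpb1 and Cel dim on every array. Of 9 lymphocyte markers Ighm rose by 0.94 in pregnancy (adjusted p = 0.00297), and of 12 stellate cell and fibroblast markers Lrat fell by 1.47 (0.0230, lost without either pre-pregnancy array at 0.0919 and 0.164). None (0) of 7 bile duct or 6 erythroid markers was called by limma, with 0 of each at an unadjusted p under 0.05 in pregnancy, and 2 bile duct and 0 erythroid markers in each postpartum comparison. The bile duct markers Krt7, Sox9, Cldn4, Cldn7 and Cftr were dim on every array. So were the erythroid markers Hba-a1 and Rhag and the lymphocyte markers Cd79a, Ms4a1 and Nkg7. The bile duct marker Krt19 was at 7.07 in postpartum replicate 1 and at 4.77 to 5.37 on the other arrays. All 4 measured placenta and yolk sac markers were dim on every array. Postpartum against pre-pregnancy, Ighm (0.96), Apob (0.535) and Marco (1.03) were higher, and Timd4 (-0.61), Ms4a1 (-0.54) and Cela1 (-1.045) lower. Of all genes, 3.91% were higher and 3.75% lower. Each of these marker calls was lost without pre-pregnancy replicate 1. Those of Apob, Marco, Timd4 and Ms4a1 were lost without any 1 array of those stages. The part of these cells in the results was not tested.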

How the data were processed

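Per the labels' protocols, 250 ng of total liver RNA went into each biotin labelling with the Affymetrix 3' IVT Express kit. The values the authors deposited are on a log2 scale. Per the submitters' processing notes RMA and Affymetrix Power Tools made them. Neither tool's version nor its options is given in the sources used here. The base of the log2 scale was inferred from the range of the deposited values (2.69 to 15.05). In its usual form RMA forces 1 distribution on all arrays, so a shift of most genes at once would be lost, and it compresses differences near background.

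Of 45101 probe sets, 34945 had 1 symbol in the platform annotation, 932 several, 9160 none, and 64 controls were left out. RefSeq's gene table held the ID of 34741 and lacked 204; it changed 0 symbols. Per gene the probe set with the highest mean was kept (18193 genes). limma 3.58.1 in R 4.3.3 was fitted with a mean per stage over all 6 arrays (3 residual and 4.80 prior degrees of freedom) and eBayes, two-sided; SE is moderated. The fit was tested on simulated data.

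Named were all 7 members, the 5 closest genes of each member spanning 1 log2 unit, and up to 4 called genes per pathway list, of which some are left out here. The members and lists were chosen with earlier results of these data known. No 2 arrays were identical (0 pairs). Promoter windows come from RefSeq, GRCm38.p6. Alternatives are given in the closing section.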

Additional observations from a re-analysis of the deposited data

How the results depend on the processing

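Over 21 pairs of a member and a comparison, 324 values were recomputed. Of these, 288 kept direction and side of the threshold, 18 lost the call, 5 gained it and 13 changed sign. All sign changes were of genes that were not called, except Mtf1 on another probe set. The 324 include the threshold of 0.1, at which no call can be lost. They also count 1 fit repeatedly, since leaving out an array of the third stage equals fitting only the 2 stages compared. The 288 therefore overstates how often a call was put to a test. All genes called numbered 2494 in pregnancy against pre-pregnancy, 599 in postpartum against pregnancy and 1393 in postpartum against pre-pregnancy. Leaving out 1 array gave 323 to 1977, 114 to 528 and 73 to 1582, with 1 to 3, 2 to 4 and 0 to 4 members called by limma. The 0 came without pre-pregnancy replicate 1, where 3 members had an unadjusted p under 0.05. Such fits assume that a lone array varies like the others. At least 2-fold gave 429, 180 and 262 genes, with 1 member in the last. A threshold of 0.1 gave 4066, 1337 and 2489 genes. Fitting only the 2 stages gave 203 genes for postpartum against pregnancy. Signs changed for other probe sets: Mtf1 (-0.20 and -0.22 in pregnancy, -0.03 postpartum against pregnancy, -0.215 against pre-pregnancy), Slc30a1 (-0.01) and Slc39a14 (0.07, then -0.105 and -0.13). Over the arrays left out, the differences spanned -0.62 to 0.36 for Slc30a10 and -0.11 to 0.12 for Slc39a4 in pregnancy, and -0.53 to 0.05 and -0.06 to 0.20 for Slc39a14 in the postpartum comparisons. The mean of all probe sets turned Slc39a6 to -0.0025 and -0.01. The causes were not tested. Of 624 recomputed list counts, 129 moved, either by over 1.5 times or to or from 0. A count that stayed at 0 was taken as not moved.

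With the replicate number as a block, 2612, 574 and 1567 genes and 2, 3 and 3 members were called, and no member's call changed. Replicate 1 deviations correlated between stages at 0.0285, 0.111 and -0.0273. The labels give only the shared number, and whether arrays of 1 number were handled together cannot be told from these values.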

Other observations

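Among zinc enzymes a few genes were called. Of 17 measured zinc-binding plasma proteins and zinc enzymes, 1 rose and 3 fell in pregnancy, 1 rose postpartum against pregnancy, and 3 rose and 2 fell postpartum against pre-pregnancy. The medians were 0.045, -0.03 and -0.025, beside 0.045, -0.01 and 0.025 for all genes, and 13.7%, 3.29% and 7.66% of all genes were called, and 12 to 16 of the 17 were not called. Car2, a cytosolic carbonic anhydrase, had 9.12 and 8.72 before pregnancy, then 8.02 and 7.98, then 9.07 and 8.86 postpartum. Only the pregnant livers were low. Car2 fell by 0.92 (SE 0.149, adjusted p = 0.00941 by limma), a call lost without pre-pregnancy replicate 1 (-0.72, adjusted p = 0.0724). It rose by 0.965 postpartum (adjusted p = 0.0188), a call lost without any 1 array of those stages (0.86 to 1.07). Car1, another carbonic anhydrase, stood at 7.36 and 7.27, then 6.00 and 6.25, then 6.81 and 6.48, and fell by 1.19 in pregnancy (SE 0.144, adjusted p = 0.00333; -1.145 and 0.0508 without pre-pregnancy replicate 1).

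Of 13 copper and manganese handling genes, 1 rose and 2 fell in pregnancy, and 1 rose and 1 fell postpartum against pregnancy, where 13.7% and 3.29% of all genes were called. Cp, the plasma copper protein ceruloplasmin, stood at 13.89 and 13.90, then 14.55 and 14.68, then 14.11 and 14.02. It rose by 0.72 ± 0.104 (adjusted p = 0.00637; 0.715 and 0.0652 without pre-pregnancy replicate 1). Its postpartum fall of 0.55 was called with all arrays (adjusted p = 0.0355) and lost without any 1 of the 6. Other Cp probe sets stood at -0.555 to 1.245 in pregnancy, and thus disagree in direction.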
